A study of Homo sapiens with 6 samples.

Results

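The cadherins and protocadherins measured here are the protein-coding genes with symbols of the CDH and PCDH series, outside chromosome Y. They were taken from the listed genes by matching Ensembl identifiers to symbols, and 71 of 17811 listed genes qualified. The other 17 family genes in the annotation, among them CDH11, CDH13, CDH5 and PCDH20, were not analysed here. Poly(A)-selected RNA was sequenced from 22RV1, a human cell line derived from a prostate carcinoma. Its cells stably expressed a short hairpin RNA against IMPA1 (shIMPA1), against IMPDH2 (shIMPDH2) or, as the control, against luciferase (shLuc), with 2 libraries in each of 3 groups. The medium, RPMI-1640 with serum, was common to all groups, and every group carried a hairpin. The labels number the libraries of a group and do not say whether they came from separate cultures or from the same one. The p-values therefore reflect the spread of these libraries alone, and that spread may be technical.

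Cadherins are calcium-dependent adhesion proteins that span the cell membrane and bind the same or a related cadherin on a neighbouring cell. Classical cadherins (type I and type II) are tied to the actin skeleton through catenins, and in prostate epithelium CDH1 (E-cadherin) holds the luminal cells together. Protocadherins bind more weakly and signal through their own cytoplasmic tails. Most of them lie in the PCDHA, PCDHB and PCDHG clusters, where each variable exon has its own promoter, and in PCDHA and PCDHG it is spliced to constant exons that the cluster shares. In neurons the choice among these promoters gives a cell its own surface identity, and binding of CTCF to a conserved promoter element is part of that choice.

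Of the 71 genes, 48 lay in the clusters on chromosome 5 of GRCh38. PCDHA held 15 of them at chr5:140786136-141012347, PCDHB 15 at chr5:141051135-141249365 and PCDHG 18 at chr5:141330571-141512981. The other 23 were 4 type I and 7 type II classical cadherins, 2 further cadherins (CDH23 and CDH26) and 10 protocadherins outside the clusters. Short promoter stretches are shown for most clustered genes that changed in a comparison below, because the promoter is what each of these genes owns. They come from RefSeq promoters on GRCh38.p14 (250 bases before to 50 after the start), on the plus strand, which is the strand of these genes. Capitals mark the match to GNCGCT (where several lie in a promoter, the match nearest 60 bases before the start), a motif chosen after the promoters were read.
PCDHA4, chr5:140806981-140807010: gagccacatgatGTCGCTctttaccacaaa
PCDHA6, chr5:140827899-140827928: gagccgcatgatGTCGCTgtctaccatgaa
PCDHA11, chr5:140868885-140868914: taggcgcaaggtGTCGCTctttacttggtg
PCDHA12, chr5:140875246-140875275: cagtcacatgatGTCGCTctacactcagaa
PCDHB1, chr5:141051276-141051305: ctggggagttgaGTCGCTcaatgcaaattt
PCDHB2, chr5:141094546-141094575: gagacgcggggtGGCGCTgcagccttagaa
PCDHB7, chr5:141172568-141172597: aaaacgcaaggtGGCGCTgctggctaaaaa
PCDHB8, chr5:141177779-141177808: aggacccgtggtGGCGCTgcaggataagaa
PCDHB10, chr5:141192301-141192330: aggccacacggtGGCGCTgcaggctaaaga
PCDHB12, chr5:141208645-141208674: gagacgcgtggtGGCGCTgcaggataatat
PCDHB13, chr5:141213867-141213896: aggacgcgtggtGGCGCTgcaggataagaa
PCDHB15, chr5:141245316-141245345: acaacgcatggtGGCGCTgcaggctaaggc
PCDHGA1, chr5:141330405-141330434: aggactgtgggcGCCGCTgttcactaatct
PCDHGA6, chr5:141373837-141373866: aggactctaagcGTCGCTgttgaccaacct
PCDHGA10, chr5:141412933-141412962: aggactctgagcGCCGCTgttcacctacta
PCDHGA11, chr5:141420974-141421003: tgggctctaggcGCCGCTgctcaccaatca
PCDHGC4, chr5:141484954-141484983: ctgagcccgggaGCCGCTgtctgccaatcg

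Promoters were matched for 60 of the 71 genes, 44 of them clustered. On the gene's own strand the motif lay in 41 of the 44 clustered promoters (93.2%), in 3 of 16 promoters of the other members (18.8%) and in 7745 of all 27305 promoters (28.4%). On either strand the shares were 95.5% of clustered promoters and 43.9% of all promoters. The match nearest 60 bases before the start read GTCGCT in all 11 PCDHA promoters that held one and GGCGCT in 12 of 13 PCDHB promoters, with PCDHB1 the exception. In PCDHG it read GCCGCT in 10 promoters and GTCGCT in 6. PCDHA9, PCDHAC2 and PCDHGB7 held no match on their own strand in this window. CDH1, CDH3, CDH6, CDH15, CDH22, CDH24, PCDH10, PCDHA3, PCDHA13, PCDHB6 and PCDHB11 had no promoter entry.

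Values are normalized read counts, that is, reads divided by 1 size factor per library. The libraries held 26215122 and 27601249 reads in shIMPA1, 20828900 and 22442454 in shIMPDH2 and 27405563 and 27773294 in shLuc. Differences are log2 fold changes of value + 1, with the standard error (SE) of the limma model, and a gene is called at a Benjamini-Hochberg adjusted p under 0.05 over all 17742 genes tested. In this model IMPA1 fell by 0.52 in shIMPA1 (adjusted p = 0.0145) and IMPDH2 fell by 0.61 in shIMPDH2 (adjusted p = 0.00999), both against shLuc. The first of these calls was lost without the first shLuc library (adjusted p = 0.159), the second without the second shLuc library or either shIMPDH2 library (up to 0.127), and both without the mean-variance trend of the model (0.0671 and 0.0612). The 2 shIMPA1 libraries differed more than 2-fold in 934 genes, against 398 between the shIMPDH2 and 266 between the shLuc libraries. Among the 71 members this was so for 11 in shIMPA1, 3 in shIMPDH2 and 0 in shLuc. All 9 markers of luminal prostate epithelium were listed, with summed counts of 100090 and 94539 in shIMPA1, 92576 and 97276 in shIMPDH2 and 123380 and 121890 in shLuc.

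Per kilobase of exon shared with no other annotated gene, CDH1 had the highest level, with a mean of 777 normalized counts in shIMPA1, 806 in shIMPDH2 and 805 in shLuc. Next in shLuc was CDH24, a type II cadherin that binds catenins, with 230 per kb in shIMPA1, 299 in shIMPDH2 and 380 in shLuc. CDH3 (P-cadherin, found in basal epithelium) followed with 188 in shIMPA1, 258 in shIMPDH2 and 265 in shLuc. The highest protocadherins in shLuc were PCDHA13 at 153 per kb, PCDHB2 at 121 and PCDH1 at 97.4. In shLuc the libraries of PCDH1, PCDHB6 and PCDHGC3 overlapped, so their order was not resolved, whereas the 5 genes above them were separated from each other. CDH1 made up 61.0% and 63.6% of the per-kb sum of the 11 classical cadherins in shIMPA1, 58.9% and 56.1% in shIMPDH2 and 51.4% and 51.8% in shLuc. Its share was thus higher in every knockdown library, while its own level was not called different.

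**Figure D1:**
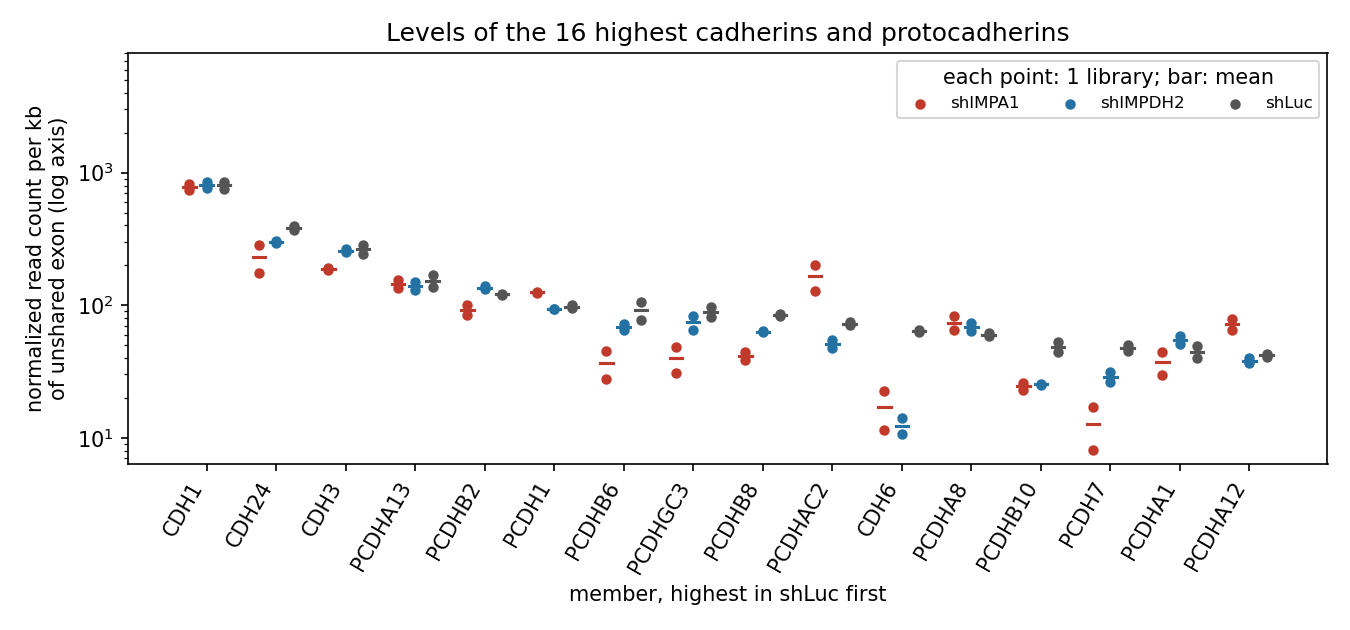
Normalized read counts per kb of unshared exon (log axis) for the 16 members with the highest mean in shLuc; each point is 1 library and each bar a group mean. CDH1 is the highest and nearly level across groups (777, 806 and 805 in shIMPA1, shIMPDH2 and shLuc), while CDH6 and PCDH7 are lower in both knockdowns and PCDHAC2 is highest in shIMPA1.

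In shIMPA1, 25 of the 71 members were called lower and 7 higher than in shLuc, while 16.2% of all genes tested were called lower and 14.0% higher (30.2% in either direction). The 25 were 35.2% of the members and the 7 were 9.86%. Their median log2 fold change was -0.49, against 0.02 over all genes. In shIMPDH2, 14 members were called lower (19.7%, against 9.15% of all genes) and 3 higher (4.23%, against 7.86%), with 17.0% of all genes called. The median was -0.38, against -0.01 over all genes. Between the knockdowns, 13 members were called higher in shIMPDH2 than in shIMPA1 (18.3%, against 13.5% of all genes) and 10 lower (14.1%, against 12.6%), with 26.1% of all genes called. That median was 0.12, against 0.00. Comparisons with shLuc share its 2 libraries, so the pair of lists is not independent. Leaving out any 1 library kept 11 of the 32 calls in shIMPA1, 3 of 17 in shIMPDH2 and 5 of 23 between the knockdowns. These held in every fit that tested the gene, and no call was turned round. CDH10, among the 11, passed the filter on low values (10 in 2 or more libraries) only through shLuc. It was therefore not tested without a shLuc library, and it is in both counts of members called lower against shLuc. Without the mean-variance trend of the model, calls of CDH3, CDH23, CDH24, PCDH1 and PCDHGA6 were lost in shIMPA1, and those of CDH2, CDH26, PCDH8, PCDH9, PCDH18, PCDHA4 and PCDHB12 in shIMPDH2. Between the knockdowns that setting ended the calls of CDH3, PCDH1, PCDH7, PCDH8, PCDH9, PCDH10, PCDHA4, PCDHB6, PCDHB15 and PCDHGC3.

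**Figure D2:**
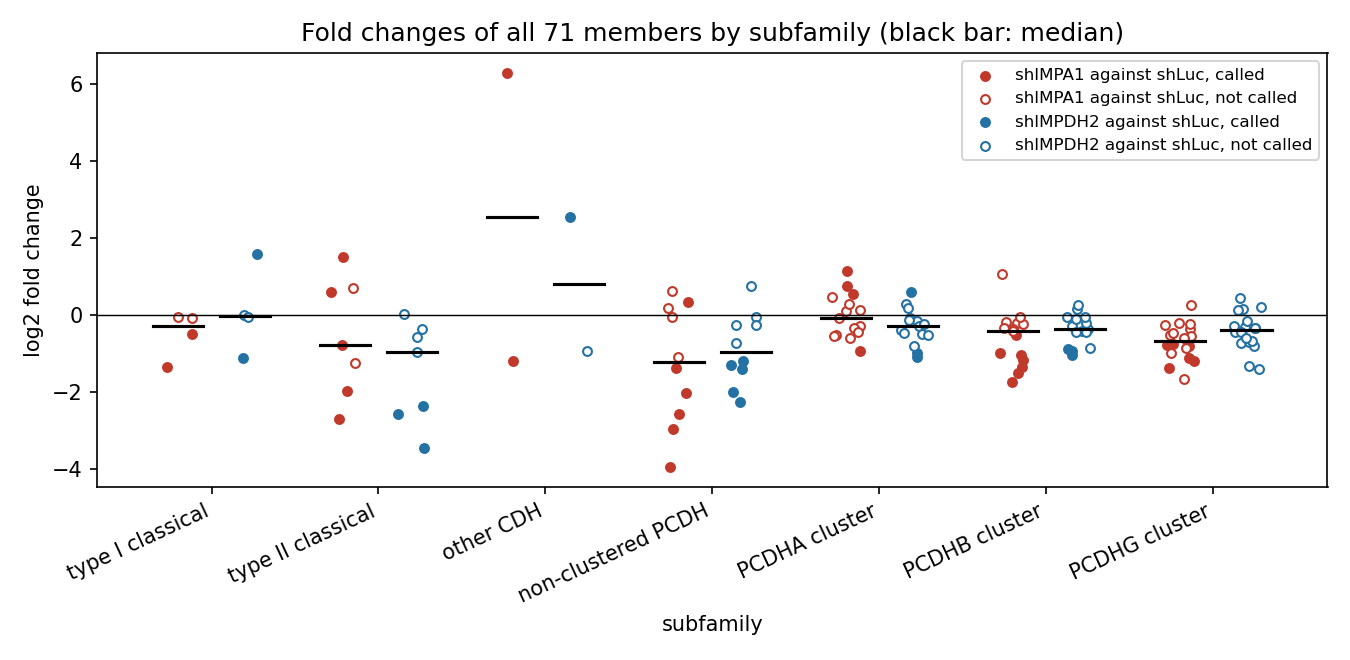
Log2 fold changes of the 71 members by subfamily, shIMPA1 against shLuc (red) left of shIMPDH2 against shLuc (blue); filled points passed the limma threshold, open points did not, and black bars are medians. Protocadherins outside the clusters have the lowest protocadherin medians (-1.22 in shIMPA1 and -0.95 in shIMPDH2), and CDH26 stands at 6.30 in shIMPA1.

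Among the type I classical cadherins, CDH1 was level, CDH2 fell in both knockdowns, CDH3 fell in shIMPA1 and CDH15 rose in shIMPDH2. CDH1 (E-cadherin, chr16:68737225-68835548) had 4755 and 4300 counts in shIMPA1, 4940 and 4454 in shIMPDH2 and 4427 and 4962 in shLuc. The groups overlapped, and the differences from shLuc were -0.05 in shIMPA1 (SE 0.13, adjusted p = 0.789) and 0.00 in shIMPDH2 (adjusted p = 0.997). CDH2 (N-cadherin, typical of neural and mesenchymal cells, chr18:27950966-28177446) had 23.3 and 26.7 counts in shIMPA1, 38.1 and 22.5 in shIMPDH2 and 55.8 and 75.3 in shLuc. All 4 knockdown libraries lay below both shLuc libraries. CDH2 fell by 1.34 in shIMPA1 (SE 0.32, adjusted p = 0.00926) and by 1.12 in shIMPDH2 (adjusted p = 0.0343). Without the second shLuc library the first of these calls was lost (adjusted p = 0.118). In shIMPDH2 the call was lost without either shLuc library or the second shIMPDH2 library (adjusted p up to 0.278) and with DESeq2 (0.0644).

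CDH3 (chr16:68636189-68722616) had 1054 and 1029 counts in shIMPA1, 1386 and 1474 in shIMPDH2 and 1360 and 1578 in shLuc. It fell by 0.49 in shIMPA1 against shLuc (SE 0.12, adjusted p = 0.0119) and differed by -0.04 in shIMPDH2 (adjusted p = 0.874), where the libraries overlapped those of shLuc. Between the knockdowns it was higher in shIMPDH2 by 0.46 (adjusted p = 0.0193). Leaving out the second shLuc library ended the call in shIMPA1 (adjusted p = 0.13), and leaving out either shIMPDH2 library ended that between the knockdowns (up to 0.168). CDH15 (M-cadherin, known from skeletal muscle) had 27.7 and 48.4 counts in shIMPDH2, 13.5 and 8.63 in shIMPA1 and 13.5 and 9.63 in shLuc. Both shIMPDH2 libraries lay above the other 4. It rose by 1.60 in shIMPDH2 against shLuc (SE 0.41, adjusted p = 0.0225) and was 1.67 higher there than in shIMPA1 (adjusted p = 0.0131), although it rested on 67 reads in shIMPDH2, 25 in shIMPA1 and 26 in shLuc. The call against shLuc was lost without either shLuc library or the second shIMPDH2 library (adjusted p up to 0.229), and that between the knockdowns without the second shIMPDH2 library (0.153).

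The type II classical cadherins, most of which are best known from the nervous system, held both falls and rises. In shIMPA1, 3 of 7 fell and 2 rose (median -0.77). In shIMPDH2 3 fell and 0 rose (median -0.96, with 0 higher also at an unadjusted p under 0.05, with edgeR and with DESeq2). Over all genes, 16.2% were called lower and 14.0% higher in shIMPA1, and 9.15% lower and 7.86% higher in shIMPDH2. CDH6 (K-cadherin, of the developing kidney, chr5:31193750-31329146) had 128 and 249 counts in shIMPA1, 156 and 119 in shIMPDH2 and 697 and 719 in shLuc. Every knockdown library was far below both shLuc libraries, and the knockdowns overlapped each other. It fell by 1.98 in shIMPA1, which is 3.94-fold (SE 0.26, adjusted p = 0.000364), and by 2.37 in shIMPDH2, which is 5.16-fold (adjusted p = 0.000203), and both calls held without any 1 library. CDH10 (chr5:24487100-24644978) had 2.69 and 1.73 counts in shIMPA1, 1.16 and 4.50 in shIMPDH2 and 18.9 and 20.1 in shLuc. Only 5 reads stood behind each knockdown group and 44 behind shLuc. CDH10 reached 10 counts in the shLuc libraries alone, so the filter on low values favoured a call of a fall. It fell by 2.69 in shIMPA1 (SE 0.61, adjusted p = 0.00734) and by 2.57 in shIMPDH2 (adjusted p = 0.0153). The second of these was -1.90 without the first shIMPDH2 library, no longer called (adjusted p = 0.105), and -3.25 without the second, and without a shLuc library CDH10 did not pass the filter on low values.

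CDH22 (chr20:46173733-46308498) had 2.31 and 7.87 counts in shIMPDH2, 21.5 and 26.7 in shIMPA1 and 57.6 and 57.8 in shLuc, so the 3 groups did not overlap. It fell by 3.44 in shIMPDH2 against shLuc (SE 0.45, adjusted p = 0.000567) on 9 reads against 130, and the difference of -1.23 in shIMPA1 was not called (adjusted p = 0.0595). It was 2.21 lower in shIMPDH2 than in shIMPA1 (adjusted p = 0.00514). Both calls held without any 1 library, but against shLuc the difference was -2.73 without the first shIMPDH2 library and -4.15 without the second, and against shIMPA1 it was -1.50 and -2.92 in the same fits. CDH24 (chr14:23047062-23057538) had 1068 and 656 counts in shIMPA1, 1136 and 1108 in shIMPDH2 and 1376 and 1474 in shLuc. It fell by 0.77 in shIMPA1 (SE 0.19, adjusted p = 0.0113), a call lost without either shLuc library (adjusted p up to 0.104), and the difference of -0.34 in shIMPDH2 was not called.

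CDH12 and CDH7, both of the nervous system, rose in shIMPA1 and stood at opposite ends in the knockdowns. CDH12 (chr5:21750673-22853622) had 51.2 and 71.6 counts in shIMPA1, 11.6 and 8.998 in shIMPDH2 and 15.3 and 28.0 in shLuc. CDH7 (chr18:65750252-65890341) had 141 and 147 in shIMPA1, 65.8 and 61.9 in shIMPDH2 and 96.3 and 91.9 in shLuc. Neither gene's groups overlapped: shIMPA1 was highest and shIMPDH2 lowest. Against shLuc, shIMPA1 was 1.50 higher for CDH12 (SE 0.37, adjusted p = 0.0113) and 0.61 higher for CDH7 (adjusted p = 0.0324). The differences in shIMPDH2 were -0.96 (adjusted p = 0.101) and -0.55 (0.0685). Between the knockdowns both calls held without any 1 library, with shIMPDH2 lower than shIMPA1 at -2.46 for CDH12 (adjusted p = 0.000931) and -1.16 for CDH7 (0.0015). The call of CDH12 against shLuc was lost without the first shLuc library (adjusted p = 0.127). That of CDH7 was lost without any 1 of the shLuc or shIMPDH2 libraries (up to 0.17), with DESeq2 and with the compared groups alone. CDH8, the remaining type II gene, was not called, with 40.4 and 54.4 counts in shIMPA1, 28.9 and 29.2 in shIMPDH2 and 23.4 and 34.1 in shLuc.

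Some markers of other cell states also differed between the groups. The stromal and mesenchymal list (7 of 9 markers listed) summed to 1074 and 1160 in shIMPA1, 819 and 740 in shIMPDH2 and 1757 and 1925 in shLuc. VIM (vimentin) had 40.4 and 43.1 counts in shIMPA1, 61.2 and 70.9 in shIMPDH2 and 658 and 753 in shLuc, and LUM (lumican) had 51.2 and 15.5 in shIMPA1, 11.6 and 11.2 in shIMPDH2 and 187 and 157 in shLuc. The list did not move as one. FN1 (fibronectin) had 594 and 804 counts in shIMPA1, 477 and 393 in shIMPDH2 and 514 and 549 in shLuc, and was called in neither knockdown against shLuc. COL1A1 differed by -0.19 in shIMPA1 (adjusted p = 0.443) and fell by 0.80 in shIMPDH2 (0.012), while COL3A1 and ACTA2 fell in shIMPA1, by 2.21 (0.0156) and 0.86 (0.0236), and were not called in shIMPDH2. DCN lay between 5.78 and 9.90 in all libraries and was not tested. The listed basal keratins KRT5, KRT14 and KRT15 summed to 12.6 and 170 in shIMPA1, 185 and 198 in shIMPDH2 and 0.900 and 6.13 in shLuc. KRT5 was at 0 in the first shIMPA1 library. PECAM1, VWF, KDR, TEK, PTPRC, CD3E and CD68 were not analysed here, and CLDN5, the listed endothelial marker, lay between 4.31 and 23.1 in all libraries. The neural list (5 of 6 listed) summed to 12644 and 10311 in shIMPA1, 11504 and 12268 in shIMPDH2 and 12820 and 13302 in shLuc. Its members did not move as one. Of the 5, 1 was called higher and 2 lower in shIMPA1, where 30.2% of all genes were called. In shIMPDH2, 0 were called higher and 2 lower, where 17.0% of all genes were called. CHGA had 1283 and 1129 counts in shIMPA1, 261 and 298 in shIMPDH2 and 540 and 596 in shLuc. The part of these shifts in the cadherin results was not tested, and in bulk RNA fewer cells of a type and less RNA per cell cannot be told apart.

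CDH26 and CDH23 fall outside the classical groups and moved in opposite directions. CDH26 (chr20:59958427-60034011), a cadherin of epithelial cells, had 155 and 817 counts in shIMPA1, 20.8 and 31.5 in shIMPDH2 and 3.60 and 3.50 in shLuc. The 3 groups did not overlap, and the shIMPA1 libraries differed more from each other than those of any other group. The rise in shIMPA1 against shLuc was 6.30, or 78.6-fold on this scale (SE 0.58, adjusted p = 3.6e-05), on 1120 reads against 8. Without the first shIMPA1 library it was 7.49 and without the second 5.10, and the call held in every such fit. The rise in shIMPDH2 was 2.55 (adjusted p = 0.0136) on 46 reads. That call was lost without any 1 shIMPDH2 or shLuc library (adjusted p up to 0.14), with edgeR (0.145) and with DESeq2 (0.0592). CDH26 was lower in shIMPDH2 than in shIMPA1 at -3.75 (adjusted p = 0.00116). That difference was -4.94 without the first shIMPA1 library and -2.55 without the second. The shIMPA1 library with the higher CDH26 count also had the higher basal keratin sum (170, against 12.6 in the other), while in shIMPDH2 that sum was 185 and 198. The part of the basal markers in the CDH26 result was not tested.

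CDH23 (chr10:71396934-71815947), which forms the tip links of hair cells in the inner ear, had 238 and 96.6 counts in shIMPA1, 174 and 188 in shIMPDH2 and 335 and 355 in shLuc. All knockdown libraries lay below both shLuc libraries, with the second shIMPA1 library lowest. It fell by 1.18 in shIMPA1 (SE 0.31, adjusted p = 0.0162), and the difference of -0.93 in shIMPDH2 was not called (0.0661). The difference in shIMPA1 was -1.82 without the first shIMPA1 library and -0.53 without the second. Its call was lost without either shLuc library (adjusted p up to 0.121).

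**Figure D3:**
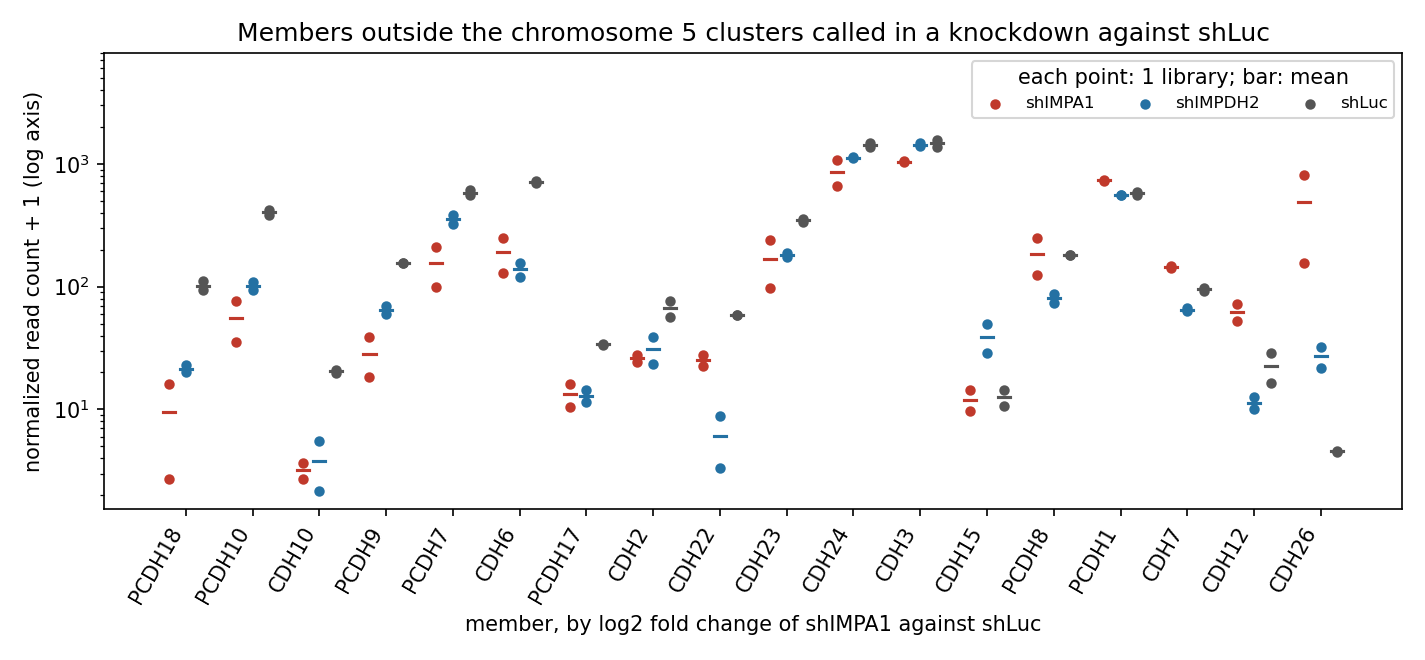
Normalized read count + 1 (log axis) per library for the members outside the chromosome 5 clusters that passed the threshold in a knockdown against shLuc, ordered by the fold change of shIMPA1; bars are group means. PCDH18, PCDH10, CDH10, PCDH9, CDH6, PCDH17 and CDH2 have both knockdowns below shLuc, CDH22 is lowest in shIMPDH2, and CDH26 spans 3.50 in shLuc to 817 in shIMPA1.

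The protocadherins outside the clusters were lower in both knockdowns on the whole. Of the 10, 5 fell and 1 rose in shIMPA1 (median -1.22). In shIMPDH2 5 fell and 0 rose (median -0.95, with 0 higher also at an unadjusted p under 0.05, with edgeR and with DESeq2). The shares called were 60% and 50%, against 30.2% of all genes in shIMPA1 and 17.0% in shIMPDH2. PCDH10 (OL-protocadherin, which acts on actin and is often silenced by promoter methylation in tumours, chr4:133149315-133208606) had 75.4 and 34.5 counts in shIMPA1, 93.6 and 108 in shIMPDH2 and 379 and 424 in shLuc. The groups did not overlap. It fell by 2.95 in shIMPA1, which is 7.71-fold (SE 0.30, adjusted p = 6.08e-05), and by 1.98 in shIMPDH2, which is 3.96-fold (adjusted p = 0.00124), and both calls held without any 1 library. It was 0.96 higher in shIMPDH2 than in shIMPA1 (adjusted p = 0.0347), a call lost in 5 of the 6 fits that left out a library (all but the first shIMPA1 library, adjusted p up to 0.207) and with the compared groups alone. PCDH10-DT, a long noncoding RNA on the opposite strand whose start lies 199 bases from that of PCDH10, had 28.7 and 12.9 counts in shIMPA1, 37.0 and 36.0 in shIMPDH2 and 133 and 116 in shLuc. It fell by 2.62 in shIMPA1 (adjusted p = 0.000307) and by 1.74 in shIMPDH2 (0.00566), chosen for mention after its values were seen.

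PCDH18 (chr4:137518918-137532494) had 15.3 and 1.73 counts in shIMPA1, 21.9 and 19.1 in shIMPDH2 and 92.7 and 109 in shLuc. It fell by 3.93 in shIMPA1 (SE 0.63, adjusted p = 0.00111) on 19 reads against 228. That difference was -5.22 without the first shIMPA1 library and -2.65 without the second, and its call held. In shIMPDH2 it fell by 2.24 (adjusted p = 0.0325), a call lost without any 1 shIMPDH2 or shLuc library (up to 0.21). PCDH9 (chr13:66302834-67230445), strongly expressed in brain, had 37.7 and 17.3 counts in shIMPA1, 68.2 and 58.5 in shIMPDH2 and 154 and 156 in shLuc, with no overlap between groups. It fell by 2.55 in shIMPA1 (SE 0.32, adjusted p = 0.000246) and by 1.28 in shIMPDH2 (0.019), and was 1.27 higher in shIMPDH2 than in shIMPA1 (0.014). The first of these calls held without any 1 library. The second was lost without any 1 shIMPDH2 or shLuc library (up to 0.159) and the third without either shIMPDH2 library (up to 0.109).

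PCDH7 (chr4:30720415-31146805), a widely expressed protocadherin, had 210 and 98.4 counts in shIMPA1, 385 and 323 in shIMPDH2 and 554 and 609 in shLuc. The groups were ordered without overlap. It fell by 2.01 in shIMPA1, or 4.02-fold (SE 0.28, adjusted p = 0.000467), a call that held without any 1 library, while the difference of -0.72 in shIMPDH2 was not called (0.0984). It was 1.29 higher in shIMPDH2 than in shIMPA1 (0.00665), lost without the first shIMPDH2 library (0.0776). PCDH17 (chr13:57631810-57729311), a synaptic protocadherin, had 15.3 and 9.49 counts in shIMPA1, 10.4 and 13.5 in shIMPDH2 and 33.3 and 32.4 in shLuc. Both knockdowns lay below shLuc and overlapped each other. It fell by 1.37 in shIMPA1 (SE 0.37, adjusted p = 0.0181) and by 1.40 in shIMPDH2 (0.0268). Both calls were lost with DESeq2 (0.0556 and 0.0849) and without either shLuc library (up to 0.12 and 0.178), the first also without the second shIMPA1 library and the second also without either shIMPDH2 library.

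PCDH8 and PCDH1 behaved differently from the others. PCDH8 (chr13:52842889-52848641), which is induced by activity at synapses, had 72.8 and 85.5 counts in shIMPDH2, 246 and 123 in shIMPA1 and 181 and 179 in shLuc. The shIMPDH2 libraries were the lowest, and the shIMPA1 libraries lay on either side of shLuc. It fell by 1.18 in shIMPDH2 against shLuc (SE 0.27, adjusted p = 0.0142) and was lower than in shIMPA1 at -1.13 (0.012). The call against shLuc was lost without any 1 shIMPDH2 or shLuc library (up to 0.127) and that between the knockdowns without either shIMPDH2 library (up to 0.103). PCDH1 (chr5:141853111-141879246), known from airway epithelium, had 745 and 727 counts in shIMPA1, 555 and 552 in shIMPDH2 and 560 and 590 in shLuc. It rose by 0.36 in shIMPA1 (SE 0.12, adjusted p = 0.0468) and was lower in shIMPDH2 than in shIMPA1 at -0.41 (0.0302). Each of these calls was lost without any 1 shIMPDH2 or shLuc library (up to 0.229 and 0.172) and with the compared groups alone, and the first also with DESeq2 (0.0811) and with size factors recomputed (0.0512). PCDH11X, PCDH12 and PCDH19 were called in no comparison. For PCDH11X, 33.8% of its 100-base stretches also occur in its copy on chromosome Y, so its count of 17.3 to 69.1 per library is uncertain.

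In the PCDHA cluster few genes changed in shIMPA1. PCDHA11, PCDHA12 and PCDHAC2 were called higher and PCDHA3 lower of 15 (median -0.08), 26.7% called against 30.2% of all genes. In shIMPDH2, PCDHA4 was called higher and PCDHA3 and PCDHA6 lower (median -0.29), 3 of 15 against 17.0% of all genes. PCDHAC2 (chr5:140966235-141012344), a C-type isoform at the end of the array, had 407 and 647 counts in shIMPA1, 151 and 173 in shIMPDH2 and 237 and 228 in shLuc. The groups did not overlap, with shIMPA1 highest. It rose by 1.14 in shIMPA1 against shLuc, or 2.20-fold (SE 0.20, adjusted p = 0.00216), and was lower in shIMPDH2 than in shIMPA1 at -1.66 (0.00027). Both calls held without any 1 library, and the difference of -0.52 between shIMPDH2 and shLuc was not called (0.108). PCDHA12 had 131 and 158 counts in shIMPA1, 79.7 and 73.1 in shIMPDH2 and 81.9 and 86.6 in shLuc, and rose by 0.76 in shIMPA1 (SE 0.20, adjusted p = 0.014). PCDHA11 had 205 and 204 in shIMPA1, 117 and 97.8 in shIMPDH2 and 136 and 143 in shLuc, and rose by 0.55 (SE 0.17, adjusted p = 0.0351). For both genes all shIMPA1 values lay above those of the other groups. The call of PCDHA12 was lost without either shLuc library (up to 0.107), and that of PCDHA11 without any 1 shLuc or shIMPDH2 library (up to 0.185), with DESeq2 and with the compared groups alone.

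Against shIMPA1, shIMPDH2 was lower for PCDHA11 at -0.93 (adjusted p = 0.0034) and for PCDHA12 at -0.91 (0.00721), each lost without the second shIMPDH2 library (0.0569 and 0.0769). PCDHA3 had 65.5 and 56.9 counts in shIMPA1, 54.3 and 55.1 in shIMPDH2 and 119 and 116 in shLuc. All 4 knockdown libraries lay below both shLuc libraries. It fell by 0.93 in shIMPA1 (SE 0.21, adjusted p = 0.00676) and by 1.09 in shIMPDH2 (0.00522). Leaving out either shLuc library ended the first call (up to 0.0709), and leaving out any 1 shLuc or shIMPDH2 library ended the second (up to 0.0772). PCDHA4 had 276 and 344 counts in shIMPDH2, 224 and 212 in shIMPA1 and 204 and 203 in shLuc. It rose by 0.60 in shIMPDH2 against shLuc (SE 0.16, adjusted p = 0.028) and was 0.50 higher there than in shIMPA1 (0.0425). PCDHA6 had 35.8 and 29.2 counts in shIMPDH2, 50.3 and 35.4 in shIMPA1 and 60.3 and 69.1 in shLuc, and fell by 0.97 in shIMPDH2 (SE 0.27, adjusted p = 0.0318). All 3 of these calls were lost without any 1 shLuc or shIMPDH2 library (up to 0.279, 0.331 and 0.216), the second and the last also with DESeq2, and the second with the compared groups alone (0.0812). Of the PCDHA6 transcript, 12.04% of 100-base stretches occur in PCDHA8, so its count is uncertain.

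PCDHAC2 made up 19.4% and 26.2% of the cluster's per-kb sum in shIMPA1, 8.55% and 10.4% in shIMPDH2 and 12.4% and 11.5% in shLuc. PCDHA13 made up 20.4% and 19.9% in shIMPA1, 27% and 25% in shIMPDH2 and 22.9% and 27.1% in shLuc. PCDHAC1 was not called, with 79.9 and 191 counts in shIMPA1, 77.4 and 52.9 in shIMPDH2 and 83.7 and 93.6 in shLuc. PCDHA13, which lies between PCDHA12 and PCDHAC1 and is the highest of the cluster per kb in shLuc, was not called either, with 276 and 316 counts in shIMPA1, 307 and 268 in shIMPDH2 and 281 and 347 in shLuc. PCDHAC2 has no motif match on its own strand in its promoter window. Exon bases owned by 1 gene alone were 36.9% to 78.7% of each PCDHA gene model. Only uniquely placed reads in exons were counted, per the labels' protocols, and how a read in the shared constant exons was assigned is not given in the sources used here.

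**Figure D4:**
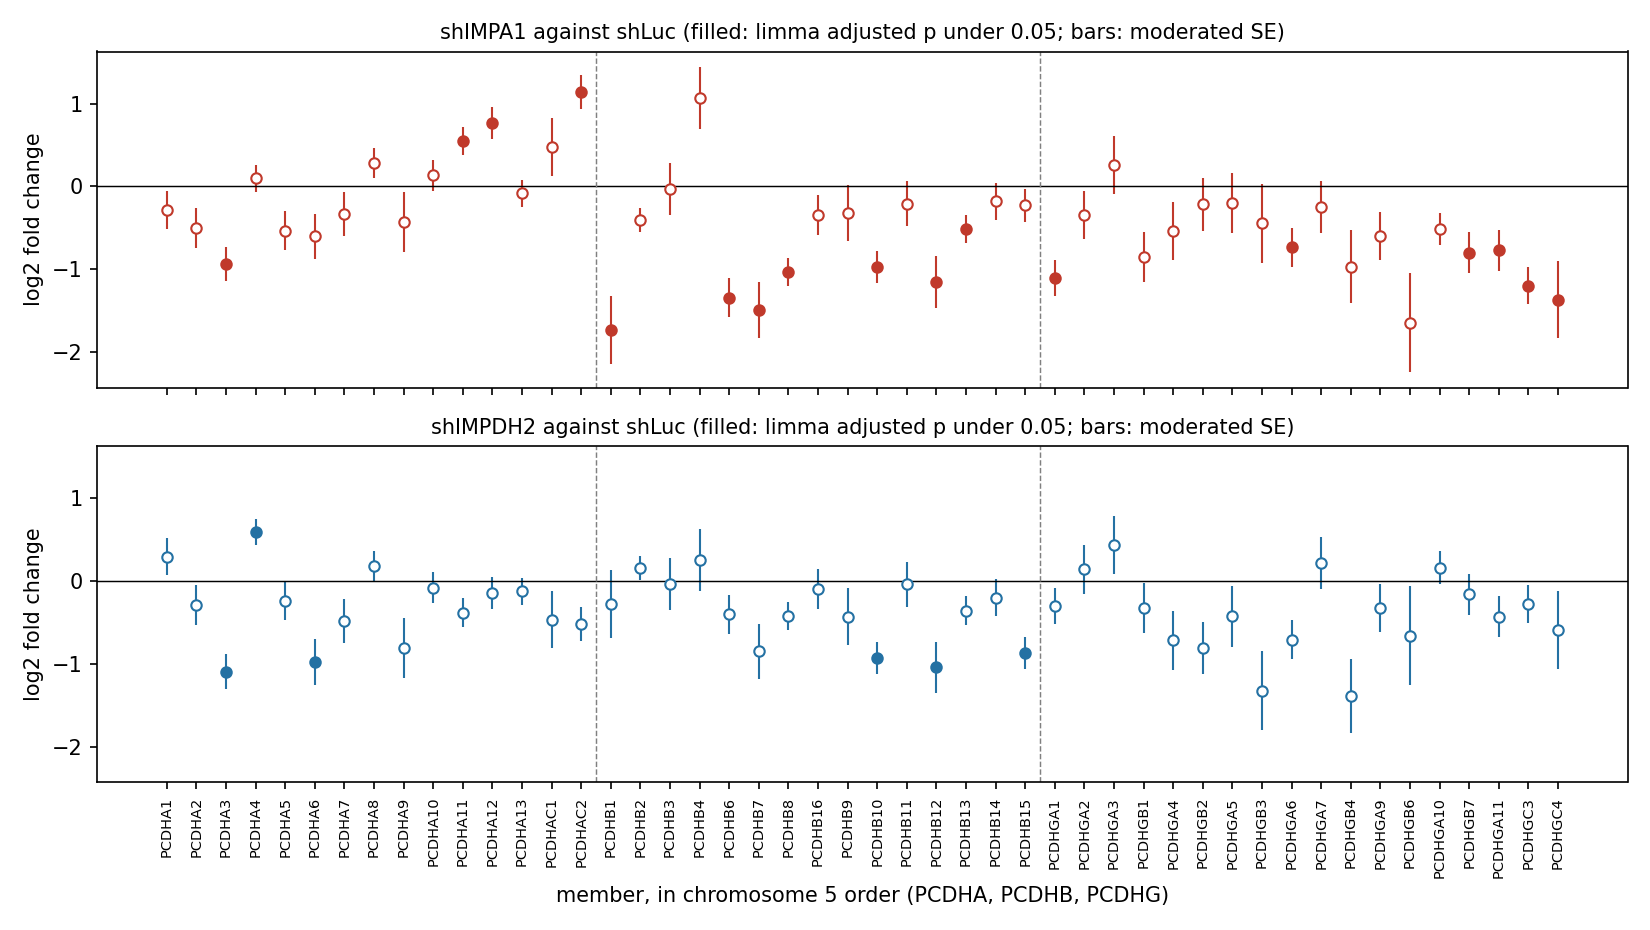
Log2 fold changes with moderated SE for the 48 clustered members in chromosome order, shIMPA1 against shLuc (upper panel) and shIMPDH2 against shLuc (lower panel); filled points passed the limma threshold and dashed lines separate PCDHA, PCDHB and PCDHG. In shIMPA1 PCDHAC2, the last PCDHA gene, stands at 1.14 and PCDHA13 at -0.08, while 14 of 15 PCDHB and 17 of 18 PCDHG genes lie below 0.

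The PCDHB genes, each a single exon with no constant part, were lower in shIMPA1. Of the 15, 7 were called lower and 0 higher (median -0.40), with 1 higher at an unadjusted p under 0.05, 1 with edgeR and 0 with DESeq2. Called lower were thus 46.7% of the cluster, against 16.2% of all genes. PCDHB6 had 145 and 89.7 counts in shIMPA1, 209 and 232 in shIMPDH2 and 249 and 339 in shLuc. PCDHB8 had 111 and 97.5 in shIMPA1, 161 and 157 in shIMPDH2 and 218 and 209 in shLuc. For both genes the groups were separate, with shIMPA1 lowest and shLuc highest. PCDHB6 fell by 1.34 in shIMPA1 (SE 0.23, adjusted p = 0.00175) and PCDHB8 by 1.03 (SE 0.17, adjusted p = 0.00129), calls that held without any 1 library. Their differences in shIMPDH2 against shLuc, -0.40 and -0.42, were not called (0.267 and 0.111), and shIMPDH2 was 0.94 and 0.61 higher than shIMPA1 (0.0132 and 0.0228). The calls between the knockdowns were lost without either shIMPDH2 library (up to 0.122 and 0.129), and for PCDHB8 also without either shLuc library and with the compared groups alone. Of the PCDHB8 transcript, 25.6% of 100-base stretches also occur in PCDHB13, so these counts are uncertain.

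In shIMPDH2, 3 PCDHB genes fell and 0 rose (median -0.35, with 0 higher also at an unadjusted p under 0.05, with edgeR and with DESeq2). The 20% of the cluster called was close to the 17.0% of all genes called in either direction. Called lower were 9.15% of all genes. PCDHB10 and PCDHB12 fell in both knockdowns. PCDHB10 had 74.5 and 84.6 counts in shIMPA1, 83.2 and 81.0 in shIMPDH2 and 144 and 171 in shLuc. It fell by 0.97 in shIMPA1 (SE 0.19, adjusted p = 0.00395) and by 0.93 in shIMPDH2 (0.00905), and the knockdowns overlapped each other. PCDHB12, at 22.5 to 37.0 counts in the knockdown libraries and 68.4 and 53.4 in shLuc, fell by 1.15 in shIMPA1 (0.0177) and by 1.04 in shIMPDH2 (0.0423). Without the second shLuc library the shIMPA1 call of PCDHB10 was lost (0.0685), and without either shLuc library that of PCDHB12 (up to 0.162). The calls of both genes in shIMPDH2 were lost without any 1 shIMPDH2 or shLuc library (up to 0.128 and 0.312), and that of PCDHB12 with DESeq2. PCDHB10 shares 21.2% of its 100-base stretches with PCDHB9.

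PCDHB15 had 72.8 and 87.7 counts in shIMPDH2, 130 and 119 in shIMPA1 and 134 and 159 in shLuc. It fell by 0.86 in shIMPDH2 against shLuc (SE 0.20, adjusted p = 0.0128) and was lower than in shIMPA1 at -0.63 (0.0352). Both calls were lost without any 1 shIMPDH2 or shLuc library (up to 0.15 and 0.217), and the second with DESeq2 and with the compared groups alone. PCDHB2, the highest gene of the cluster, had 352 and 293 counts in shIMPA1, 462 and 490 in shIMPDH2 and 422 and 428 in shLuc. The groups did not overlap, but only the difference between the knockdowns was called, with shIMPDH2 0.57 higher than shIMPA1 (0.0146), a call lost without either shIMPDH2 library (up to 0.135). The remaining PCDHB calls in shIMPA1 were of PCDHB1, PCDHB7 and PCDHB13. PCDHB1 fell by 1.73 (SE 0.41, adjusted p = 0.00927) and was 1.46 higher in shIMPDH2 than in shIMPA1 (0.0238). PCDHB7 fell by 1.49 (0.00726) and PCDHB13 by 0.52 (0.0408). PCDHB1 lost its call against shLuc without the first shLuc library (0.129) and PCDHB7 without the second (0.0952). The PCDHB13 call was lost without any 1 shLuc or shIMPDH2 library (up to 0.222), with DESeq2 and with the compared groups alone, and the PCDHB1 call between the knockdowns without either shIMPDH2 library (up to 0.195) and with DESeq2.

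In the PCDHG cluster 6 of 18 genes fell and 0 rose in shIMPA1 (median -0.67). None was higher at an unadjusted p under 0.05, with edgeR or with DESeq2. The 33.3% of the cluster called was close to the 30.2% of all genes called in either direction. Called lower were 16.2% of all genes. DESeq2 called 2 lower. In shIMPDH2, 0 of 18 were called in either direction (median -0.38) by limma, edgeR and DESeq2, where limma called 17.0% of all genes. At an unadjusted limma p under 0.05, 4 were lower and 0 higher. PCDHGC3, a C-type isoform, had 158 and 100 counts in shIMPA1, 271 and 210 in shIMPDH2 and 265 and 317 in shLuc. PCDHGA1, the first gene of the array, had 69.1 and 53.5 in shIMPA1, 123 and 93.3 in shIMPDH2 and 133 and 130 in shLuc. For both genes the shIMPA1 libraries were the lowest. PCDHGC3 fell by 1.20 in shIMPA1 (SE 0.23, adjusted p = 0.00282), lost without the second shLuc library (0.0543), and PCDHGA1 fell by 1.10 (SE 0.22, adjusted p = 0.00372), which held without any 1 library. Their differences in shIMPDH2 against shLuc were -0.28 (0.436) and -0.30 (0.38).

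Between the knockdowns, shIMPDH2 was higher than shIMPA1 by 0.92 for PCDHGC3 (adjusted p = 0.013), by 0.80 for PCDHGA1 (0.0206) and by 0.68 for PCDHGA10 (0.0265). The first was lost without the first shIMPDH2 library (0.133), the second without any 1 shLuc or shIMPDH2 library (up to 0.18) or with the compared groups alone and the third without either shIMPDH2 library (up to 0.199). PCDHGA11 had 53.0 and 40.6 counts in shIMPA1, 62.4 and 56.2 in shIMPDH2 and 70.2 and 91.0 in shLuc, and fell by 0.77 in shIMPA1 (SE 0.25, adjusted p = 0.035). PCDHGA6 fell by 0.74 (0.0372), PCDHGB7 by 0.80 (0.0326) and PCDHGC4, at 13 reads in shIMPA1 and 38 in shLuc, by 1.37 (0.0472). Each of these 4 calls was lost in 5 of the 6 fits that left out a library, all but that without the first shIMPA1 library (up to 0.259, 0.269, 0.181 and 0.302), with DESeq2 and with the compared groups alone. As in PCDHA, constant exons are shared: 35.6% to 72.4% of each PCDHG gene model belonged to 1 gene alone.

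Summed over each cluster, the PCDHA counts were 2075 and 2439 in shIMPA1, 1780 and 1719 in shIMPDH2 and 1893 and 1951 in shLuc. The PCDHB sums were 1299 and 1111 in shIMPA1, 1552 and 1507 in shIMPDH2 and 1794 and 1944 in shLuc. For PCDHG they were 774 and 606 in shIMPA1, 1014 and 899.8 in shIMPDH2 and 1132 and 1222 in shLuc. In shIMPA1 the PCDHA sum was thus above shLuc while the PCDHB and PCDHG sums were below it, and in shIMPDH2 all 3 were below. The higher PCDHA sum was not a rise of the whole cluster. PCDHAC2 alone had 407 and 647 counts in shIMPA1 against 237 and 228 in shLuc. Of the 15 PCDHA genes, 8 had a log2 fold change below 0 there (median -0.08). Per kb, PCDHA gave 52.5% and 61.4% of the clustered output in shIMPA1, 43.0% and 43.1% in shIMPDH2 and 41.3% and 40.5% in shLuc. Transcribed pseudogenes of the family were named after their values were seen. PCDHB17P fell by 2.11 in shIMPA1 (adjusted p = 0.000597) and PCDHB18P by 0.76 (0.00847). In shIMPDH2, PCDHB18P fell by 0.67 (0.0253) and PCDHB17P differed by -0.42 (0.371). PCDH8P1 fell by 1.45 in shIMPA1 (0.00541) and by 1.49 in shIMPDH2 (0.00829), whereas PCDH8 itself was called lower in shIMPDH2 (differing by -0.05 in shIMPA1, adjusted p = 0.914).

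Counts of related genes are to be read against the shares of all genes called, 30.2% in shIMPA1 and 17.0% in shIMPDH2 against shLuc. Of 16 tested catenins and junction partners, 2 fell in shIMPA1: CTNNAL1, related to alpha-catenin, at -0.80 (adjusted p = 0.00464) and NECTIN3, an adhesion protein of the same junctions, at -0.84 (0.00277). In shIMPDH2, NECTIN2 rose by 0.54 (0.0132) and CTNNA2, the neural alpha-catenin, by 1.59 (0.0178). CTNNB1 (beta-catenin) had 12646 and 14142 counts in shIMPA1, 14477 and 15135 in shIMPDH2 and 12891 and 12766 in shLuc and was not called in a comparison. The list's medians were -0.17 in shIMPA1 and 0.06 in shIMPDH2. Of 6 tested desmosomal genes, 0 were called in shIMPA1 by limma, edgeR or DESeq2 (1 higher at an unadjusted limma p under 0.05). In shIMPDH2 the desmosomal cadherin DSC2 rose by 1.05 (0.000956), the plaque gene PKP1 rose by 1.17 (0.0318) and the desmosomal cadherin DSG2 fell by 0.49 (0.0183). The desmosomal medians were -0.03 in shIMPA1 and 0.04 in shIMPDH2. The calls of CTNNA2, NECTIN2, DSG2 and PKP1 were lost without any 1 shIMPDH2 or shLuc library (up to 0.148, 0.153, 0.161 and 0.213). That of PKP1 was also lost with DESeq2, and those of CTNNAL1 and NECTIN3 without the first shLuc library (0.0682 and 0.0558). Among related genes, the setting without the mean-variance trend ended the calls named here of CELSR2, FAT3, PSEN2 and SMC1A in shIMPA1 (adjusted p 0.0534 to 0.0851). In shIMPDH2 it ended those of CLSTN2, CTNNA2, DNMT3B, DSG2, NCSTN, NECTIN2, PKP1 and PSEN2 (0.054 to 0.117).

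Among 17 tested genes of other cadherin-repeat families, 4 fell in shIMPA1, and 3 fell and 1 rose in shIMPDH2, with medians of -0.26 and -0.39. The calsyntenin CLSTN3, a synaptic membrane protein, fell by 0.91 in shIMPA1 (adjusted p = 0.000604) and by 1.07 in shIMPDH2 (0.000379). Its relative CLSTN2 fell by 2.72 (0.00759) and 2.54 (0.0179) in the same comparisons. CLSTN2 had 6.28 and 1.73 counts in shIMPA1, 6.93 and 2.25 in shIMPDH2 and 34.2 and 23.6 in shLuc. It passed the filter on low values only through shLuc, so the filter favoured a call of a fall. CLSTN2 is in both counts of genes that fell. CELSR2, of the planar polarity pathway, fell by 1.07 in shIMPA1 (0.00565) and the giant cadherin FAT3 by 1.84 (0.0219). In shIMPDH2, CDHR3 fell by 1.31 (0.00388) and CDHR1, of photoreceptors, rose by 1.06 (0.0128). CLSTN3 kept its calls without any 1 library. CELSR2 lost its call without the second shLuc library (0.0756), FAT3 without either shLuc library or the second shIMPA1 library (up to 0.144, with -2.74 without the first shIMPA1 library and -0.93 without the second), CDHR3 without either shLuc library or the first shIMPDH2 library (up to 0.066), and CDHR1 without the first shLuc or either shIMPDH2 library (up to 0.157). CLSTN2 kept its call in shIMPA1 in the fits that could test it, at -3.43 without the first and -2.02 without the second shIMPA1 library. In shIMPDH2 it was -3.18 without the first and -1.89 without the second library, where it was not called (0.159).

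Several known regulators of CDH1 were called. Of 9 tested, 2 rose and 3 fell in shIMPA1, and 1 rose and 2 fell in shIMPDH2, with medians of 0.09 and -0.19. GRHL2, an epithelial factor that activates CDH1, had 2360 and 2754 counts in shIMPA1, 3010 and 2876 in shIMPDH2 and 1403 and 1535 in shLuc. It rose by 0.80 in shIMPA1 (adjusted p = 0.000933) and by 1.00 in shIMPDH2 (0.000389), and all knockdown libraries lay above both shLuc libraries. ESRP1, which sets epithelial splicing, rose by 1.27 in shIMPA1 (4.15e-05). TWIST1, a repressor of CDH1, fell by 0.50 in shIMPA1 (0.00816). The epithelial factor OVOL2 fell in shIMPA1 by 0.50 (0.0208), and OVOL1 fell there by 0.67 (0.0214), a call not followed through the other settings. In shIMPDH2 OVOL1 fell by 1.12 (0.00263) and ELF3 by 0.54 (0.0115). GRHL2 and ESRP1 kept these calls without any 1 library. TWIST1 lost its call without the first shLuc library (0.0866), OVOL2 without either shLuc library (up to 0.136), OVOL1 in shIMPDH2 without the second shLuc library (0.0642) and ELF3 without any 1 shLuc or shIMPDH2 library (up to 0.119). SNAI1 and ZEB1, also tested, were called in no comparison, at 6.93 to 36.8 and 14.9 to 33.2 counts per library. SNAI2, ZEB2 and TWIST2 were not analysed here.

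Of 17 tested genes known to act on protocadherin promoter choice, 4 fell and 2 rose in shIMPA1, where 16.2% and 14.0% of all genes did, and 1 fell and 0 rose in shIMPDH2, where 9.15% and 7.86% did (3 higher at an unadjusted p under 0.05, 1 higher with edgeR and 0 with DESeq2). The medians were -0.16 in shIMPA1 and 0.00 in shIMPDH2. CTCF had 1697 and 1405 counts in shIMPA1, 1710 and 1572 in shIMPDH2 and 1541 and 1853 in shLuc, and was not called in shIMPA1 (adjusted p = 0.517). The cohesin subunit SMC3, which holds DNA loops with CTCF, had 2990 and 2317 counts in shIMPA1, 4880 and 4689 in shIMPDH2 and 4643 and 4894 in shLuc. Both shIMPA1 libraries lay below the other 4. SMC3 fell by 0.86 in shIMPA1 (adjusted p = 0.00112) and was 0.86 higher in shIMPDH2 than in shIMPA1 (0.00132), and both calls held without any 1 library. TRIM28, a corepressor, fell by 0.61 (0.00653) and TET2, which oxidizes methylcytosine, rose by 0.59 (0.00569) in shIMPA1, and the cohesin subunit SMC1A fell by 0.80 (0.014). TET1, a relative of TET2, fell in shIMPA1 by 0.71 (0.0281), a call not followed through the other settings. TET3 was not called there (0.655). In shIMPDH2 the DNA methyltransferase DNMT3B fell by 0.81 (0.0116). TRIM28, TET2 and SMC1A lost their calls without the second, the first and either shLuc library (0.0797, 0.0623 and up to 0.132), and DNMT3B without any 1 shLuc or shIMPDH2 library (up to 0.146).

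Of 11 tested genes of cadherin shedding and endocytosis, 4 rose and 1 fell in shIMPA1, and 2 rose in shIMPDH2, with medians of 0.36 and 0.28. The gamma-secretase subunit NCSTN rose by 0.64 in shIMPA1 (adjusted p = 0.00283) and by 0.55 in shIMPDH2 (0.0117), and PSEN2, of the same protease, by 0.58 (0.0131) and 0.51 (0.0372). CBLL1 (Hakai), a ubiquitin ligase that drives uptake of CDH1, rose by 0.84 in shIMPA1 (0.00254) and ADAM17, a sheddase, by 0.69 (0.00528). ADAM15 was the 1 that fell in shIMPA1, by 0.46 (0.0135), a call not followed through the other settings. The NCSTN and CBLL1 calls in shIMPA1 held without any 1 library. ADAM17 and PSEN2 lost theirs in shIMPA1 without either shLuc library (up to 0.0589 and 0.0939), and NCSTN and PSEN2 theirs in shIMPDH2 without any 1 shLuc or shIMPDH2 library (up to 0.126 and 0.284).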

How the data were processed

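Trimming used Trimmomatic 0.36, alignment used STAR 2.5.2b on GRCh38, and counting used featureCounts of Subread 1.5.2, per the submitters' processing notes. The annotation release is not given in the sources used here. Per the labels' protocols, only uniquely placed reads within exons were counted. The deposited signal values are normalized by the authors: in each library they are whole multiples of a single step, so reads were recovered from them, within 0.05 reads for 99.98% to 100.0% of genes. The authors' deposited log2 fold change and p-value columns name no comparison and were not used.

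Symbols, coordinates and exon lengths came from GENCODE release 29. All 6 libraries entered a limma 3.58.1 fit (R 4.3.3) on log2(value + 1), with a mean-variance trend, a coefficient for each group, no replicate term and 3 residual degrees of freedom. Tested genes reached 10 in 2 or more libraries, as all 71 members did. Alternatives were other pseudocounts and filters, edgeR 4.0.16 and DESeq2 1.42.0 on recovered reads, other size factors, the compared groups alone, no trend, a replicate block and each library left out. The fit was tested on simulated data, a single draw per comparison with few changed genes. The share of false calls was above the nominal level in each comparison, though only slightly for shIMPDH2 against shLuc. Far more genes were called in the real data, so this share cannot be carried over to them. Calls close to the threshold are still to be read as less certain than their adjusted p states.

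Every member called in a comparison is named. Per-library values follow a rule (up to 15 members per comparison with a mean of at least 50), and others were added after their values were seen. Related genes are named by smallest adjusted p, up to 4 per list. CTNNB1, CTCF, ADAM15, SNAI1, ZEB1, TET1, TET3 and the shIMPA1 call of OVOL1 were added. Members and lists were chosen with earlier results of these data known. One promoter stretch is not reported here.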

Additional observations from a re-analysis of the deposited data

How the results depend on the processing

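With 2 libraries a group and 3 residual degrees of freedom, the counts of calls depended on the libraries kept and on how the spread was estimated. Leaving out 1 library at a time gave between 2147 and 7940 called genes for shIMPA1 against shLuc (5361 with all libraries), with 2 to 10 members higher and 9 to 37 lower. For shIMPDH2 against shLuc the range was 773 to 6386 called genes (3018 with all), with 0 to 3 members higher and 3 to 29 lower. Between the knockdowns it was 1430 to 7052 (4627 with all), with 1 to 21 members higher and 5 to 14 lower. Without the mean-variance trend 3508, 1727 and 2909 genes were called in these comparisons, with 1 member higher in shIMPDH2 against shLuc and 7 higher between the knockdowns. With the compared groups alone 4 members were higher in shIMPA1, and in shIMPDH2 6382 genes were called and 27 members were lower. DESeq2 called 4 members higher in shIMPA1. The other planned settings kept these counts within 1.5 times. Over the tested genes, the differences between libraries 1 and 2 of the groups correlated at 0.04, -0.05 and 0.00027. Whether libraries of the same number shared their handling was not tested. With a replicate block, 5298, 2939 and 4537 genes were called, with 6 members higher and 26 lower in shIMPA1, 3 and 16 in shIMPDH2, and 13 and 10 between the knockdowns. That block ended 4 member calls: PCDH1, PCDHB13 and PCDHGC4 in shIMPA1 and PCDHA4 between the knockdowns. CDH1 in shIMPA1 ranged between -0.134 and 0.0308 with a library left out, above 0 without the second shLuc (0.0308) or second shIMPA1 library (0.0209). In shIMPDH2 CDH1 ranged between -0.0813 and 0.0835, below 0 without the first shLuc (-0.0813) or first shIMPDH2 library (-0.0736), with DESeq2 (-0.00502) and with recomputed size factors (-0.00387). CDH3 in shIMPDH2 ranged between -0.142 and 0.0721, above 0 without the second shLuc (0.0721) or first shIMPDH2 library (0.00947). None of these passed the threshold, and no called member changed sign. The cause of these shifts was not tested, and members with few reads (5 per knockdown group for CDH10) are limited by depth.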
